A study of Mus musculus with 6 samples.

Results

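Chemokines and chemokine receptors were followed in mouse acute myeloid leukaemia cells with and without Dnmt3b, which encodes an enzyme that methylates DNA de novo. Members were the genes named Ccl, Cxcl, Ccr or Cxcr with a number, together with Cx3cl1, Cx3cr1, Xcl1, Xcr1, Ackr1 to Ackr4, Ccrl2, Pf4 and Ppbp, wherever an array row carried exactly 1 gene symbol. This gave 57 of the 30142 genes measured: 37 ligands, 17 signalling receptors and 3 atypical receptors. The rule used no measured value. All 57 were tested, with no filter on low values.

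Both groups were leukaemias induced by MLL-AF9, a fusion oncogene, and grown in recipient mice. The control group, from littermates, and the Dnmt3b-KO group had 3 arrays each. Leukaemia cells came from the marrow of end-stage recipients after a flow cytometry sort, and their RNA was hybridised to Affymetrix arrays. How the knockout was made, the sorting markers, the ages of the animals and whether each array is a separate recipient are not given in the sources used here. Recipient mice keep marrow cells of their own, so the sort is what separates leukaemia from host. Nothing says that arrays are separate animals, so the spread behind each p-value is that of these arrays and may be technical.

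Chemokines are small secreted proteins that guide the movement of leukocytes by binding G protein-coupled receptors on their surface. CC ligands mostly bind CCR receptors and CXC ligands CXCR receptors, and many ligands share a receptor. In bone marrow, CXCL12 from stromal cells holds CXCR4-bearing haematopoietic and leukaemic cells in place, and CCR2 guides monocytes out of the marrow toward CCL2 and CCL7. Atypical receptors bind chemokines without the usual G protein signal.

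Values are on the log2 scale as deposited. They reach 19.59, above the 16 of a 16-bit scanner on that scale, so an unstated step stretched or shifted them. Differences are therefore given in these log2 units and not as folds. A row near the median gene, which lay between 4.75 and 4.85 on the 6 arrays, cannot be told from background, and differences that start from such a level have no exact size.

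Dnmt3b-KO replicate 3 lay apart from the rest. Across genes, its correlation with each other array was 0.981 to 0.982, and that between any pair of the other 5 was 0.998 to 0.999. Results are given over all 6 arrays, over 5 arrays without it, and for that array alone. Dnmt3b itself was at 6.76, 6.83 and 6.78 on the control arrays and at 6.47, 6.63 and 5.96 on the Dnmt3b-KO arrays. All 3 Dnmt3b-KO values were below the controls. The difference was -0.44 ± 0.17 (SE; limma, adjusted p = 0.78) over 6 arrays and -0.24 ± 0.07 (adjusted p = 0.16) over 5. Whether the row lies in the deleted part is not given, so it checks the labels weakly. Of 8 measured markers of blood cells, myeloid cells and MLL-AF9 leukaemia, 7 (Meis1, Ptprc, Cebpa, Mpo, Itgam, Kit and Csf3r) lay above the 75th percentile of genes on all 6 arrays, and Hoxa10 above the median gene. Of 12 T and NK cell markers 11 lay below the median gene on every array, as did 7 of 10 B and plasma cell markers and 9 of 13 stromal and endothelial markers.

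The start regions of 5 members on which the results turn are shown first. Ccl9 is the ligand with the smallest p, Ccl3, Cxcl2 and Pf4 are ligands that stood high on Dnmt3b-KO replicate 3, and Cxcr4 is the receptor with the largest difference there. Each sequence is the 250 bases before the RefSeq start of the gene (build GRCm38.p6), read 5′ to 3′ on the strand of the gene. Capitals mark CpG dinucleotides, the sites that DNA methyltransferases act on. Methylation itself was not measured here.
Ccl9, chr11:83578637-83578886, minus strand: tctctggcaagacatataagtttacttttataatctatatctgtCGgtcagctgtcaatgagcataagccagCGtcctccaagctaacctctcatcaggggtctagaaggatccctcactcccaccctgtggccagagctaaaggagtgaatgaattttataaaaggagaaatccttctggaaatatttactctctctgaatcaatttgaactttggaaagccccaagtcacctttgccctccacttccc
Ccl3, chr11:83649379-83649628, minus strand: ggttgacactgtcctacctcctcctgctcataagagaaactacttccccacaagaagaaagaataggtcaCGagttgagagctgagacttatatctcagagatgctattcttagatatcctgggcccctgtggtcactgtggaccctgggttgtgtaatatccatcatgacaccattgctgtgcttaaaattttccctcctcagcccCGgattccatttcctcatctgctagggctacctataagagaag
Cxcl2, chr5:90903649-90903898, plus strand: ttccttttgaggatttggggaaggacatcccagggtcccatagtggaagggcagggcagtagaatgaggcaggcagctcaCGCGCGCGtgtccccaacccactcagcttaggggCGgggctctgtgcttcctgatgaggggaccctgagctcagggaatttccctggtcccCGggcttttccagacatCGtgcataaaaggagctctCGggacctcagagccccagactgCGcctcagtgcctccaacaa
Pf4, chr5:90772185-90772434, plus strand: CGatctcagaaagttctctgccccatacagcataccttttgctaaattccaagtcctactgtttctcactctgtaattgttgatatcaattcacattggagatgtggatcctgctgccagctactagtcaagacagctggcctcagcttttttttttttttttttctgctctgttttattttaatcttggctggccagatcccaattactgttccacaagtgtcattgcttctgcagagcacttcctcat
Cxcr4, chr1:128592300-128592549, minus strand: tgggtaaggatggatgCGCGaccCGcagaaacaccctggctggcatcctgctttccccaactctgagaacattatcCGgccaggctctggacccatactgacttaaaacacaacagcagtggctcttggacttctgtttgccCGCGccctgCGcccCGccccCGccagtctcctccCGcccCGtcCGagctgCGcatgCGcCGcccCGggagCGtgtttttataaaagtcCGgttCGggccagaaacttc

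The Cxcr4 sequence holds 19 CpGs and that of Cxcl2 holds 9, while those of Ccl9 and Ccl3 hold 2 each and that of Pf4 holds 1. RefSeq windows of 300 bases (250 before the start and 50 after) were found for 43 of the 57 members, 49 windows in all. Ccl2, Ccl4, Ccl5 and Ccl7, which also stood high on Dnmt3b-KO replicate 3, had no window. The median CpG count of the 49 member windows was 4, against 7 over all 32851 windows. Receptor windows had a median of 3 and ligand windows 4. The interquartile range was 3 to 10 for members and 3 to 20 for all windows, so the lower quartiles were level and the upper one was lower for members. Of the 49 windows 17 held more than 7 CpGs, the highest being 1 of the Ccl25 windows at 52, Cxcl14 at 22, Cxcl12 and Cxcr4 at 20 each and Cx3cl1 at 19.

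5 short motifs were searched on both strands of the same windows, each counted whether or not it overlapped another. The NF-kB motif, bound by an inflammatory transcription factor, was found in 12 of 49 member windows (24.5%) and in 8.46% of all windows. The TATA box, TATAAA, was found in 26.5% of member windows and 13.6% of all, and the AP-1 motif TGANTCA in 16.3% and 7.81%. The myeloid motifs were closer to the background: GAGGAA for PU.1 in 30.6% of member windows and 28.3% of all, and TTNNGNAA for C/EBP in 44.9% and 40.7%. The Ccl9 window held the NF-kB, TATA, AP-1 and C/EBP motifs, and the Cxcl2 window the NF-kB, PU.1 and C/EBP motifs. Those of Ccl3 and Pf4 held the PU.1 and C/EBP motifs, and that of Cxcr4 the TATA and C/EBP motifs. A match describes the letters only.

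Most members were at the floor of the array. 34 of the 57 lay below the median gene on all 6 arrays, with values from 3.21 to 4.54, among them Cxcl1, Cxcl10 and Cxcl12, the ligand of CXCR4. Another 15 lay above it on all 6 arrays, and 8 were above on some arrays only. The 8 that pass the 75th percentile of genes in a group or on Dnmt3b-KO replicate 3 are the ligands Ccl2, Ccl3, Ccl9, Cxcl2 and Pf4 and the receptors Ccr1, Ccr2 and Cxcr4. In control cells only Ccl3, Ccl9, Ccr1, Ccr2 and Cxcr4 did so.

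**Figure D1:**
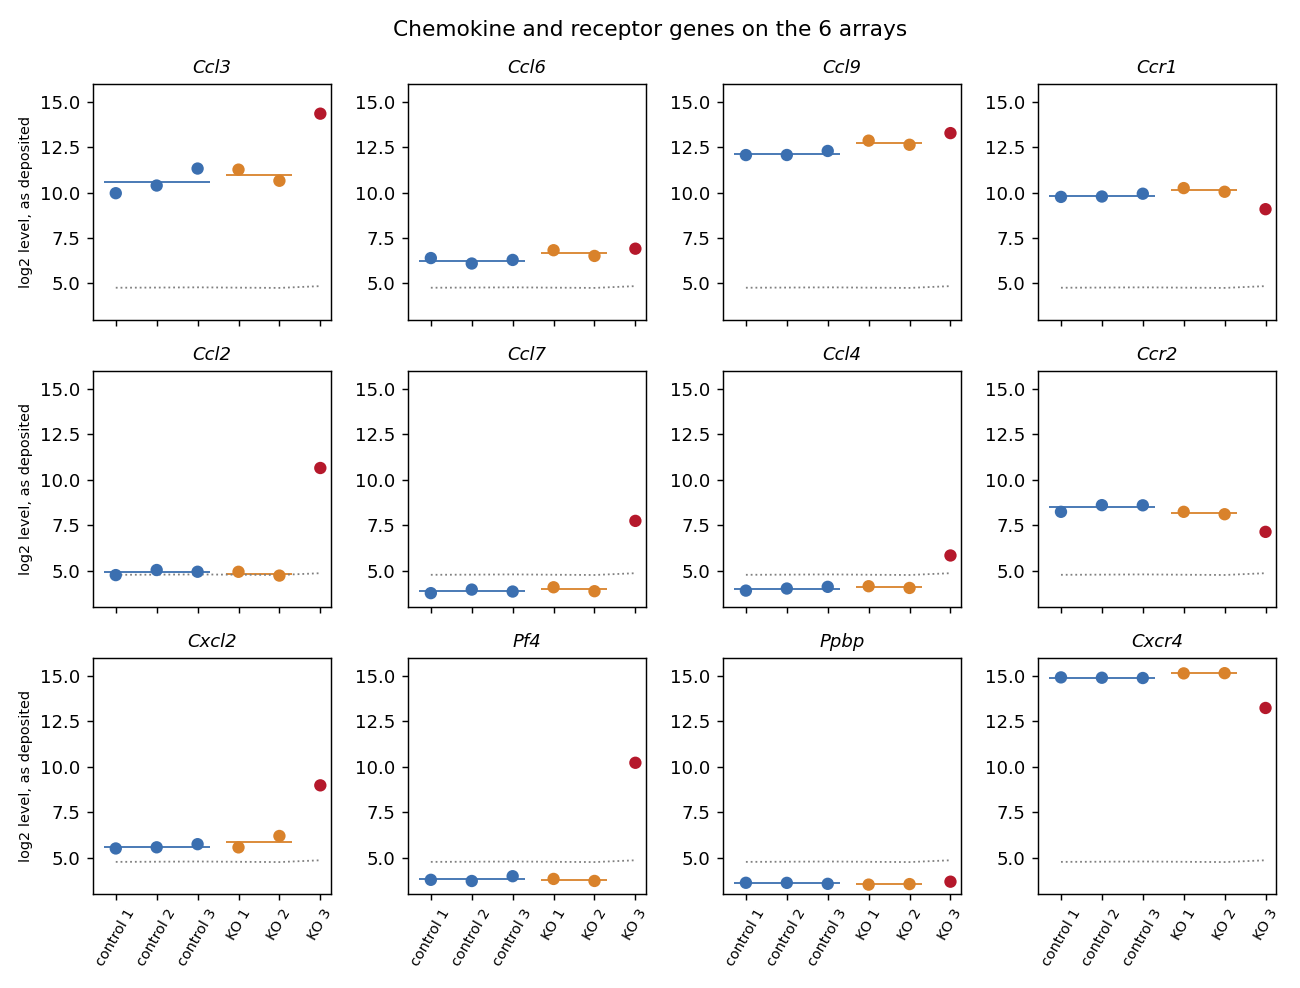
Log2 level as deposited (y axis) on each of the 6 arrays (x axis) for 12 members. Blue points are control, orange Dnmt3b-KO replicates 1 and 2 and red Dnmt3b-KO replicate 3, horizontal lines are group means and the dotted line is the median gene of each array. Ccl2, Ccl7 and Pf4 lie near or below the dotted line on 5 arrays and well above it on the red one, while Cxcr4 is lowest there at 13.24.

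No member passed the threshold of an adjusted p under 0.05, over 6 arrays or over 5. limma called 0 of 30142 genes over 6 arrays (0.0%) and 509 (1.69%) over 5, of which 283 were higher (0.939%) and 226 lower (0.75%) in Dnmt3b-KO. At an unadjusted p under 0.05 there were 5 members over 6 arrays (8.77%, against 6.37% of all genes) and 11 over 5 arrays (19.3%, against 15.5%). The groups did not overlap for 7 members over 6 arrays (12.3%, against 14.9% of all genes) and for 17 over 5 arrays (29.8%, against 32.5%). Of the 7, 4 were higher in Dnmt3b-KO (Ackr1, Ccl19, Ccl6 and Ccl9, beside 6.68% of all genes). The other 3 were lower (Cxcl17, Cxcl9 and Ccr10, beside 8.21%). Of these, Ackr1, Ccl19, Cxcl9 and Ccr10 lay below the median gene on all 6 arrays. Over 5 arrays 8 members were higher (beside 15.1%) and 9 lower (beside 17.4%). These shares lie near the background. Over the same 5 arrays limma called 5 of 14 mast cell, basophil and eosinophil markers lower in Dnmt3b-KO (Prg2 by -3.36, Cpa3 by -3.12, Epx by -2.01, Hdc by -1.71 and Ms4a2 by -0.90) and 1 higher (Siglecf by 1.01), and 1 of 11 neutrophil markers lower (Retnlg by -0.81), with adjusted p from 0.00087 to 0.035. The part of these cells in the differences between the groups was not tested. The median difference over members was 0.02 over 6 arrays and -0.0042 over 5, beside -0.0036 and -0.0096 for all genes. Of the 57 differences, 34 were above 0 over 6 arrays and 27 over 5, beside 48.8% and 46.3% of all genes.

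Ccl9 came nearest to the threshold, followed by Ccr10 and Cxcr4. Ccl9, a CC chemokine that binds CCR1 and is abundant in myeloid cells, measured 12.07, 12.07 and 12.29 in control and 12.86, 12.63 and 13.28 in Dnmt3b-KO. All 3 Dnmt3b-KO values lay above every control. The difference was 0.60 ± 0.10 (SE; limma, adjusted p = 0.053) over 5 arrays and 0.78 ± 0.17 (adjusted p = 0.60) over 6. The adjusted p was under 0.05 over 5 arrays with array weights, with arrays centred or with dim genes removed, and ranged from 0.020 to 0.32 over the alternatives.

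Ccl6, a relative of Ccl9 that also binds CCR1, had the same order at a lower level. It measured 6.40, 6.10 and 6.29 in control and 6.83, 6.51 and 6.91 in Dnmt3b-KO, again without overlap. The difference was 0.41 ± 0.12 (SE; limma, adjusted p = 0.19) over 5 arrays and 0.49 ± 0.13 (adjusted p = 0.66) over 6. With 1 more of the 5 arrays left out it ran from 0.25 to 0.57.

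Ccl3, the inflammatory chemokine MIP-1 alpha, varied most among the controls. It measured 9.97, 10.39 and 11.32 there, a range of 1.36, and 11.27, 10.65 and 14.35 on the Dnmt3b-KO arrays. Replicates 1 and 2 lay inside the control range, and replicate 3 lay 3.39 above their mean. The difference was 0.40 ± 0.40 (SE; limma, adjusted p = 0.74) over 5 arrays and 1.53 ± 1.01 (adjusted p = 0.83) over 6. With 1 more of the 5 arrays left out it ran from 0.09 (without Dnmt3b-KO replicate 1) to 0.78 (without control replicate 3). No other member had a control range above 1, and only 23 of all genes did.

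Among receptors, Ccr1, shared by these ligands, measured 9.76, 9.78 and 9.94 in control and 10.25, 10.05 and 9.09 on the Dnmt3b-KO arrays. Replicates 1 and 2 lay above every control and replicate 3 below every control. Over 5 arrays the difference was 0.32 ± 0.09 (SE; limma, adjusted p = 0.16), and over 6 it was -0.03 ± 0.30 (adjusted p = 0.99).

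Cxcr4 showed the same split at a high level. It measured 14.92, 14.90 and 14.89 in control and 15.14, 15.15 and 13.24 in Dnmt3b-KO. The difference over 5 arrays, 0.24 ± 0.05 (SE; limma, adjusted p = 0.091), is small beside the distance of replicate 3, and over 6 arrays it was -0.39 ± 0.53 (adjusted p = 0.87). Its direction thus rests on replicate 3. Its ligand Cxcl12, made mainly by stromal cells, was between 3.68 and 3.91 on all 6 arrays.

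Ccr2, the monocyte receptor for CCL2 and CCL7, measured 8.23, 8.60 and 8.59 in control and 8.23, 8.10 and 7.13 in Dnmt3b-KO. Replicate 1 and control replicate 1 were level at 8.23, and replicate 3 was lowest. The difference was -0.31 ± 0.12 (SE; limma, adjusted p = 0.31) over 5 arrays and -0.65 ± 0.31 (adjusted p = 0.82) over 6.

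The atypical receptor Ccrl2, which binds chemerin, measured 5.10, 5.15 and 5.38 in control and 5.44, 5.85 and 5.07 in Dnmt3b-KO. The difference was 0.43 ± 0.14 (SE; limma, adjusted p = 0.21) over 5 arrays and 0.24 ± 0.21 (adjusted p = 0.83) over 6. With 1 more of the 5 arrays left out it ran from 0.23 (without Dnmt3b-KO replicate 2) to 0.64 (without Dnmt3b-KO replicate 1). Ccr10 and Cxcl9 had the largest differences on the lower side next to Ccr2, at -0.31 ± 0.06 (adjusted p = 0.071) and -0.33 ± 0.13 (adjusted p = 0.32) over 5 arrays. Both lay below the median gene on all 6 arrays, so these sizes describe rows near background. Apart from the members with values in this and the preceding paragraphs and Cxcl2, differences over 5 arrays ran from -0.22 (Cxcl5) to 0.21 (Ackr1). Cxcr2, the neutrophil receptor for CXC ligands, measured between 5.20 and 5.36 on the 6 arrays, and Ccr7, which guides cells to lymph nodes, between 5.83 and 6.02.

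**Figure D2:**
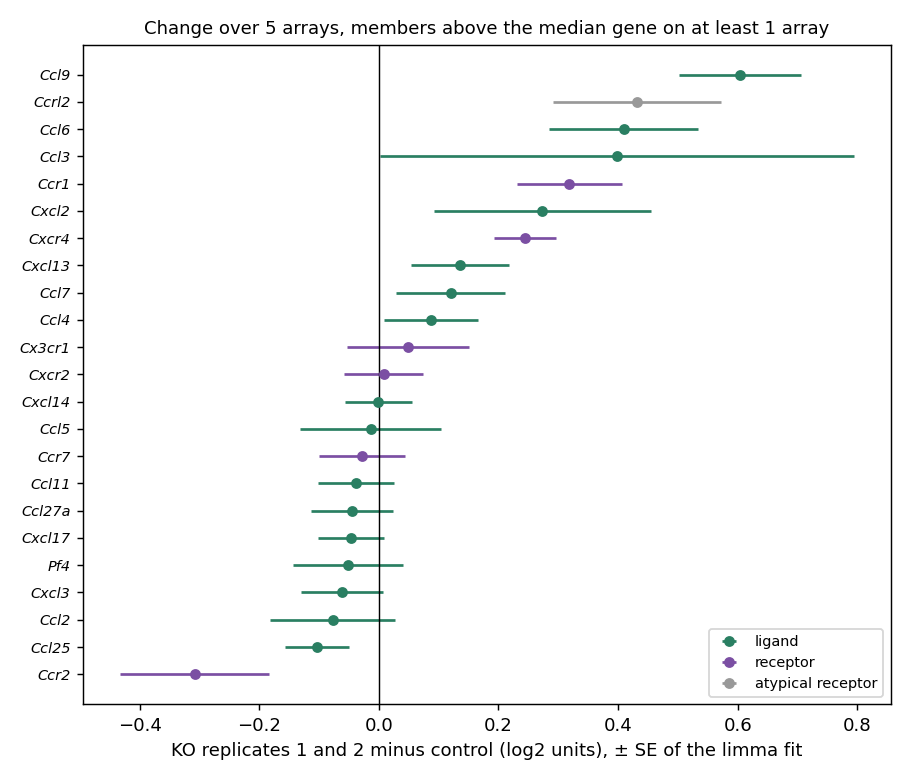
Difference of Dnmt3b-KO replicates 1 and 2 from the 3 controls in log2 units (x axis, with SE of the limma fit) for the 23 members above the median gene on at least 1 array (y axis); green marks ligands, purple receptors and grey the atypical receptor. Ccl9, at 0.60, lies farthest to the right and Ccr2, at -0.31, farthest to the left, and none passed the threshold.

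On Dnmt3b-KO replicate 3 taken alone, 10 members differed by more than 1 from the mean of replicates 1 and 2 (17.5%, against 6.97% of all genes). 7 were higher (12.3%, against 4.03%), all of them ligands, and 3 were lower (5.26%, against 2.94%), all of them receptors. This is 1 array, so there is no test. Replicates 1 and 2 differed from each other by at most 0.63 for any member. Replicate 3 lay above all other arrays for 28 members (49.1%, against 33.9% of all genes) and below them for 9 (15.8%, against 31.3%). These counts include small differences of rows at the floor. The median gene itself was 4.85 on replicate 3 and 4.75 to 4.78 on the other arrays. The sign of the difference from replicates 1 and 2 changed for 7 members with arrays centred and for 8 after repeated quantile normalization. How far this shift enters the counts was not tested.

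The CCR2 ligands Ccl2 and Ccl7 were near background elsewhere. Ccl2, also known as MCP-1, measured 4.75, 5.03 and 4.93 in control, 4.93 and 4.72 on Dnmt3b-KO replicates 1 and 2, and 10.64 in replicate 3. Ccl7 measured 3.75 to 3.95 in control, 4.08 and 3.86 in replicates 1 and 2, and 7.73 in replicate 3. Both values of replicate 3 lie beyond all other arrays, whereas Ccr2 was 1.04 lower there than in replicates 1 and 2. Over 6 arrays limma gave a difference of 1.86 ± 1.61 (SE; adjusted p = 0.83) for Ccl2, and over 5 arrays -0.08 ± 0.10 (adjusted p = 0.82).

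Ligands of other receptors were high there too. Ccl3 was 3.39 higher. Ccl4, its close relative, was at 3.89 to 4.13 on 5 arrays and at 5.83 on replicate 3. Ccl5, a T cell and monocyte attractant, was at 4.34 to 4.68 on 5 arrays and at 5.67 on replicate 3. Cxcl2, a neutrophil attractant, measured 5.50, 5.57 and 5.74 in control, 5.56 and 6.19 on Dnmt3b-KO replicates 1 and 2, and 8.98 in replicate 3. Its difference was 0.27 ± 0.18 (SE; limma, adjusted p = 0.57) over 5 arrays and 1.31 ± 0.87 (adjusted p = 0.83) over 6. Cxcl1 and Cxcl3, the relatives of Cxcl2 that share its receptor, differed by 0.03 and 0.16 on replicate 3.

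Pf4, platelet factor 4, had the largest difference. It measured 3.78, 3.71 and 3.97 in control, 3.83 and 3.71 on Dnmt3b-KO replicates 1 and 2, and 10.22 in replicate 3. Over 6 arrays limma gave 2.10 ± 1.79 (SE; adjusted p = 0.83), and over 5 arrays -0.05 ± 0.09 (adjusted p = 0.87). Ppbp, the other platelet chemokine, measured 3.51 to 3.67 on the 6 arrays. None of 9 megakaryocyte and platelet markers was higher by more than 1 on replicate 3 and 1, Itgb3, was lower, while their mean level was 4.67 there and 4.53 to 4.67 on the other arrays. Of the 9, 7 lay below the median gene on every array. Itgb3, an integrin gene that other blood cells also express, was the 1 of the 9 called over 5 arrays, where it rose by 0.72 ± 0.08 (SE; limma, adjusted p = 0.020).

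The receptors that were lower on replicate 3 were Cxcr4 by -1.91, Ccr1 by -1.06 and Ccr2 by -1.04. After repeated quantile normalization Ccr1 and Ccr2 were at -0.95 and -0.98, just short of 1, and Cxcr4 was at -1.78. Cx3cr1, the fractalkine receptor of monocytes and macrophages, was the member nearest the limit from below on the higher side. It measured 5.42, 5.39 and 5.58 in control, 5.65 and 5.38 on Dnmt3b-KO replicates 1 and 2, and 6.36 in replicate 3, a difference of 0.84. Next came Ccrl2 at -0.57 and Cxcl14 at 0.57, and all other members were closer to replicates 1 and 2.

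**Figure D3:**
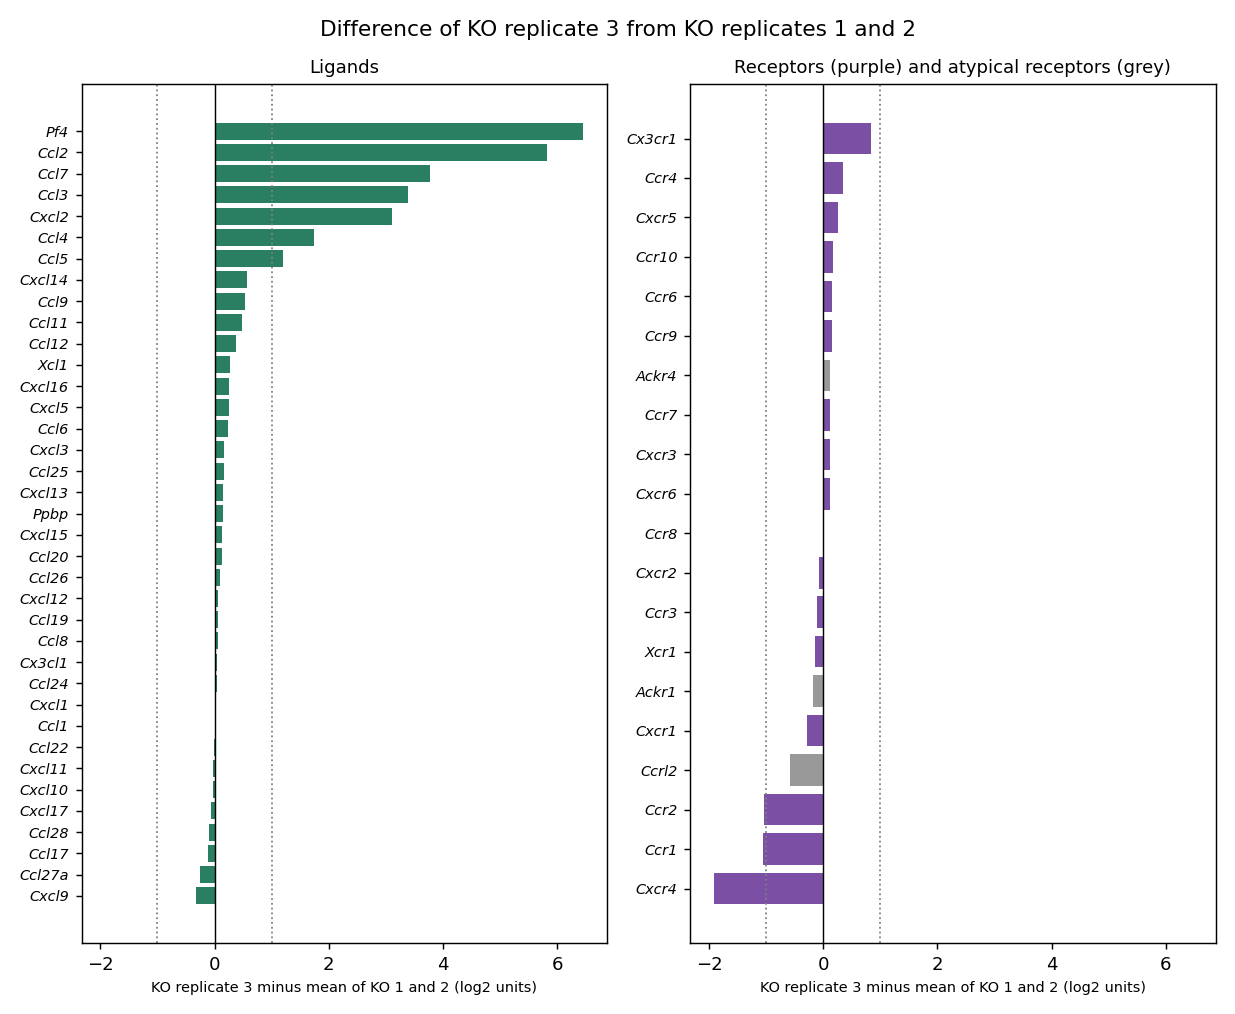
Dnmt3b-KO replicate 3 minus the mean of Dnmt3b-KO replicates 1 and 2 in log2 units (x axis) for the 37 ligands (left) and the 20 receptors and atypical receptors (right), with dotted lines at 1 and -1. The 7 bars past 1 are all ligands, from Ccl5 at 1.20 to Pf4 at 6.45, and the 3 bars past -1 are Ccr2, Ccr1 and Cxcr4.

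Most macrophage markers moved with these ligands. Of 17 measured macrophage markers 10 were higher by more than 1 on Dnmt3b-KO replicate 3 and 1, Vcam1, was lower, with a median difference of 2.75 against 0.02 for all genes. Their mean level was 6.52, 6.52 and 6.62 in control, 6.64 and 6.50 on Dnmt3b-KO replicates 1 and 2, and 9.47 in replicate 3. Mrc1, the mannose receptor, measured 12.05 there and 4.43 to 4.57 in replicates 1 and 2, while C1qa and Timd4 lay below the median gene on all 6 arrays. Apoe, Marco and Cd163, which did not lie below it on all arrays, differed from replicates 1 and 2 by only 0.05, 0.10 and -0.04. Of 11 neutrophil markers 5 were past -1 (S100a8, S100a9, Ngp, Mmp8 and Csf3r) and 1, Mmp9, was 1.49 higher, while Lcn2 and Ly6g were at -0.07 each, for a mean level of 7.21 against 7.87 to 8.45 on the other arrays. Mast cell, basophil and eosinophil markers had 5 of 14 past -1. In RNA from bulk cells, fewer cells of a type and less RNA per cell cannot be told apart, and the part of macrophage RNA in the ligand levels was not tested. Without that array none of the 17 macrophage markers was called, and their median difference from control was -0.01, whereas 6 of the 14 mast cell, basophil and eosinophil markers were called, as given above.

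**Figure D4:**
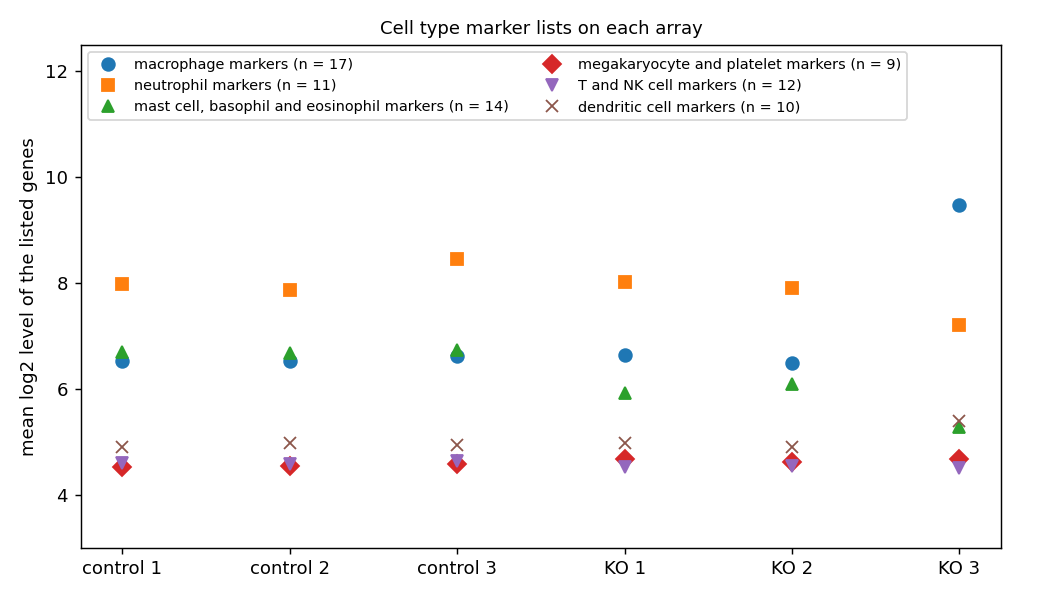
Mean log2 level of the measured genes of 6 cell type marker lists (y axis) on each array (x axis). The macrophage list lies at 6.50 to 6.64 on 5 arrays and at 9.47 on Dnmt3b-KO replicate 3, while the megakaryocyte and platelet list stays between 4.53 and 4.67.

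Members that lie side by side in the genome did not all move together. By the order of protein-coding genes in the RefSeq annotation, with neighbours at most 5 places apart, 5 ligands form a group on chromosome 11. Of these, Ccl3, Ccl4 and Ccl5 were higher by more than 1 on Dnmt3b-KO replicate 3, while Ccl6 and Ccl9 differed by 0.24 and 0.53. In the other group on chromosome 11, Ccl2 and Ccl7 passed 1 and their neighbours Ccl1, Ccl8, Ccl11 and Ccl12 did not, at 0.02 to 0.48. On chromosome 5, Pf4 and Cxcl2 passed 1 among 7 CXC ligands, and their neighbours Ppbp, Cxcl1, Cxcl3, Cxcl5 and Cxcl15 differed by 0.03 to 0.25. On chromosome 9, Ccr1 and Ccr2 were lower among 6 neighbouring receptors, and the other 4, Ccr3, Ccr9, Cxcr6 and Xcr1, lay near background.

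Other genes of the chemokine system were followed in 5 lists, with 113 of 128 listed genes measured. Over 5 arrays 3 of the 113 were higher and 0 lower at an adjusted p under 0.05 (2.65%, against 1.69% of all genes), and over 6 arrays limma called 0. At an unadjusted p under 0.05 there were 33 over 5 arrays (29.2%, against 15.5% of all genes) and 13 over 6 (11.5%, against 6.37%). The median difference of the 113 over 5 arrays was 0.05. The lists differ from all genes in level. On the control arrays the mean was 10.82 to 10.87 for the signal transduction list. It was 4.90 to 4.94 for the other chemoattractant receptors, and the median gene was 4.76 to 4.78. The shares were not compared with those of genes at a like level.

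In the list of receptor desensitisation, Grk3, a kinase that switches off activated G protein-coupled receptors, was the only one of 16 genes called over 5 arrays. It measured 6.16, 6.23 and 6.24 in control, 7.48 and 7.42 on Dnmt3b-KO replicates 1 and 2, and 6.34 in replicate 3. It rose by 1.24 ± 0.06 (SE; limma, adjusted p = 0.0016) over 5 arrays, and over 6 the difference was 0.87 ± 0.31 (adjusted p = 0.74). Replicate 3 lay just above the controls and did not share the size of the rise. With 1 more array left out the adjusted p stayed between 0.012 and 0.040.

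Of 17 other chemoattractant receptors 2 were called over 5 arrays. Ptafr, the receptor for platelet-activating factor, measured 5.79, 5.83 and 6.00 in control, 7.02 and 6.98 on Dnmt3b-KO replicates 1 and 2, and 6.74 in replicate 3, so all 3 lay above the controls. It rose by 1.13 ± 0.08 (SE; limma, adjusted p = 0.0049) over 5 arrays, and over 6 the difference was 1.04 ± 0.10 (adjusted p = 0.20). The call was lost without Dnmt3b-KO replicate 1 (adjusted p = 0.076) or replicate 2 (adjusted p = 0.060). Ptger2, a prostaglandin E2 receptor, measured 5.29 to 5.32 in control, 5.66 and 5.76 in replicates 1 and 2, and 6.09 in replicate 3. It rose by 0.40 ± 0.06 (SE; limma, adjusted p = 0.035) over 5 arrays, but lost the call with any 1 more array left out, at 0.086 to 0.17, and over 6 arrays the difference was 0.53 ± 0.12 (adjusted p = 0.60).

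None of 34 genes of receptor signal transduction passed, and the smallest p over 5 arrays was that of the kinase gene Jak2, at 0.28 ± 0.06 (SE; limma, adjusted p = 0.091). None of 19 genes of chemokine processing and presentation passed, with the protease gene Mmp9 at 0.83 ± 0.16 (adjusted p = 0.071). None of 27 other inflammatory cytokines and receptors passed, with Il1rn, the interleukin-1 receptor antagonist, at 0.29 ± 0.05 (adjusted p = 0.064). On Dnmt3b-KO replicate 3, 16 of the 113 genes lay more than 1 higher (14.2%) and 8 more than 1 lower (7.08%), beside 4.03% and 2.94% of all genes. Chosen after their values were seen, the complement receptor gene C3ar1 measured 11.65 there and 3.68 to 3.94 elsewhere, the RGS gene Rgs1, which shortens G protein signals, 12.56 and 5.06 to 5.89, and Tnf 11.80 and 7.47 to 7.92. Of the 8 lower genes, chosen likewise, Mmp8 differed from replicates 1 and 2 by -1.89 and Rasgrp2 by -1.55.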

How the data were processed

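RNA of 6 samples, 3 control and 3 Dnmt3b-KO, was measured on Affymetrix arrays. The deposited log2 values are RMA output of the authors (no version), as the submitters' processing notes state, and the array's build and annotation are not given in the sources used here. This table holds 72688 rows, of which 30604 had exactly 1 symbol in the platform annotation. Symbols of 827 rows were updated through the gene identifier in RefSeq, and a gene with several rows was represented by its brightest, which left 30142 genes. Each member had 1 such row. Rows with several symbols were assigned to no gene and entered no comparison. The Ccl19 and Ccl27a rows have near-identical copies in the genome, so their values are uncertain.

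Group differences were fitted with limma 3.58.1 under R 4.3.3 (lmFit, eBayes, Benjamini-Hochberg over all genes, threshold 0.05), over 6 arrays and without Dnmt3b-KO replicate 3. The fit was run on simulated data with the spreads of the 5 arrays, which lack the spread that Dnmt3b-KO replicate 3 adds over 6 arrays. The members, lists and 5-array comparison were chosen with earlier results of these data known. Named in full were members above the 75th percentile of genes in a group or on Dnmt3b-KO replicate 3. Others were the 3 largest differences per direction, members past 1 on that array, and from each pathway list up to 2 called genes per direction or else the one with the smallest p. Alternatives tried were leaving out each array, array weights, no empirical Bayes, a robust fit with a variance trend, a block for the replicate number, centring, a second quantile normalization, filters on dim genes, averaging a gene's rows, counting identical rows once and another threshold. Replicate numbers were not taken as pairs. The number of arrays limits the precision. Figures were drawn with matplotlib 3.10.9.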

Additional observations from a re-analysis of the deposited data

How the results depend on the processing

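Over 6 arrays the count of chemokine and receptor genes called stayed 0 under every alternative run. Over 5 arrays the 0 became 1, Ccl9, with array weights (adjusted p = 0.048), with arrays centred (0.041), among genes brighter than the median (0.020) and past the 40th percentile (0.027), and 3, Ccl9, Ccr10 and Cxcr4, at an adjusted p under 0.1; leaving out 1 more array gave 0 to 0. The count over all genes, 0 over 6 arrays, was 103 with array weights, where the weight was 0.11 for Dnmt3b-KO replicate 3 and 1.26 to 2.17 elsewhere, and 0 to 509 with 1 array left out, the 509 without Dnmt3b-KO replicate 3. The 509 genes over 5 arrays became 1148 at an adjusted p under 0.1, 1003 among genes brighter than the median, 842 among those past the 40th percentile, 0 without empirical Bayes and 13 to 262 with 1 more array left out. A single remaining Dnmt3b-KO array was taken to vary as the controls do. The filters test fewer genes, and for the other settings the cause was not tested.

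A replicate block gave 0 genes and 0 members over 6 arrays, and 96 genes and 0 members over 5, where control replicate 3 has no partner and drops out; Ptger2 lost its call there (adjusted p = 0.12). The deviations from the group mean of samples that share a number correlated at 0.13, 0.03 and 0.11. The Dnmt3b-KO mean includes the outlying replicate 3, so these correlations cannot decide whether the numbers mark pairs. No label says that they do, and they were not taken as pairs. Over 6 arrays Ccr1 turned to 0.26 and Cxcr4 to 0.18 with array weights. With 1 of 6 arrays left out the difference of Ccr1 ran from -0.26 to 0.32, Cxcr4 from -0.71 to 0.24, Ccl2 from -0.077 to 2.88, Pf4 from -0.051 to 3.20 and Jak2 from -0.063 to 0.28. Over 5 arrays Pf4 turned to 0.026 with the replicate block. With 1 more array left out Ccl2 ran from -0.18 to 0.03, Cxcl2 from -0.041 to 0.59 and Pf4 from -0.11 to 0.026. Without empirical Bayes Grk3 (adjusted p = 0.17), Ptafr (0.20) and Ptger2 (0.21) lost their calls. Mmp9 (0.025 and 0.035) and Il1rn (0.040 and 0.044) passed over 5 arrays under the same filters. The 10 members past 1 on Dnmt3b-KO replicate 3 were 10 with arrays centred, 10 with the mean of rows and 8 after quantile normalization.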

Other observations

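In 21 rows of the array a chemokine or receptor symbol stands beside other symbols, so under the rule of exactly 1 symbol they entered no comparison. In 2 of them the other symbol is an older name of the same gene, Ackr2 or Ackr3. These 2 genes are therefore missing from the members. The 9 rows that list Ccl21 copies lay between 4.05 and 4.41 and the 2 rows that list an atypical receptor with an older symbol between 3.07 and 4.69. The 5 rows that list Ccl27 copies lay between 4.41 and 6.29. On Dnmt3b-KO replicate 3 these 5 differed from Dnmt3b-KO replicates 1 and 2 by -0.74 to -0.16, and on replicates 1 and 2 from control by -0.09 to 0.02. The largest difference of any of the 21 rows from control on replicates 1 and 2 was 0.15, among the 5 rows that list Ccl19. Those 5 lay between 3.54 and 4.50.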
